A study of Brassica oleracea with 15 samples.

Results

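The accD-psaI-ycf4-cemA-petA operon is a run of neighbouring genes on the plastid genome, and its transcripts were measured in the hypocotyl of dark-grown Brassica oleracea seedlings. Its members were the 5 probe sets, of 22810 on the array, whose only annotated gene symbol was accD, psaI, ycf4, cemA or petA. All 5 lay above the filter on low signal that kept 11371 probe sets for testing. The operon was chosen by its lower signal in blue light than in the control, so that difference is given below as a description without a test. Gravity against the control and blue light against gravity share arrays with that comparison and are treated in the same way. What the choice did not use, and what was tested, are the differences between opposite flanks and the variation among arrays within a group.

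Seedlings were wild type, 3 days old and etiolated, and received a mock stimulation, 2 h of unilateral blue light, or 2 h of gravity stimulation. Flank sections of about 1 cm, holding the outer tissue of the hypocotyl, were pooled from about 100 seedlings per sample, and each of 5 groups had 3 separate samples. Blue light gave 2 groups, the shaded flank and the lit flank; gravity stimulation gave the bottom flank and the top flank; flanks of mock-stimulated seedlings were the control. The shaded and bottom flanks are those that elongate more during bending and are called the elongating flanks. Both stimulations and the control share the dark growth before treatment, and only the blue light groups received light. Each value comes from pooled flanks with several cell types, so fewer plastids or cells of a type and less RNA per plastid or cell cannot be told apart. Group names follow the sample titles, since the tissue named in the extraction notes of the lit samples and of some bottom samples differs from the title.

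Plastid operons are transcribed into long RNAs that are cut and trimmed into sets of overlapping messages, so genes of an operon can share a transcript and still differ in RNA level. The products of this operon serve different processes. accD encodes a subunit of the plastid acetyl-CoA carboxylase, the enzyme that starts fatty acid synthesis. psaI encodes a small membrane subunit of photosystem I, and ycf4 an assembly factor of photosystem I. cemA encodes a protein of the plastid envelope, linked to inorganic carbon uptake in Chlamydomonas, and petA encodes cytochrome f of the cytochrome b6f complex, which passes electrons between the photosystems. Plastids of a dark-grown hypocotyl are etioplasts, which become chloroplasts in the light.

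Signals are the deposited array signal on a linear scale, with every array scaled to the same trimmed mean of 500. The ATH1 array carries Arabidopsis probes and was hybridised with cRNA of Brassica, so signals of different genes are not set against each other; each gene is compared only with itself across arrays. With 3 arrays per group, precision is limited by that number. The second lit array stood apart from the rest: its 25S ribosomal RNA control probe set read 4508, against 460.1 to 930.6 on the other 14 arrays, and it had the lowest signal of all 15 arrays for each of the 5 operon genes. The first shaded array was second lowest for each of them. The operon genes' differences in the main fit that use the second lit array, and their correlations within groups, are also given without it or as ranges over single arrays left out. Ratios between members and the likeness of other genes to the operon are given only with it. The lists of vascular, mesophyll and seed reserve markers had no member with a named probe set, and the epidermal list had no usable one, so the tissue of the arrays was not checked by markers here.

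At the start of the operon, accD signal was 11194, 13605 and 12030 in the control. In the shaded flank it was 3487, 6460 and 6507, and in the lit flank 5789, 3461 and 7310. In the bottom flank it was 9044, 9852 and 11526, and in the top flank 13992, 14700 and 8813. All 6 blue light arrays lay below all control and all gravity arrays, while the gravity and control arrays overlapped. The groups ordered, from the highest mean, as top flank (12500 ± 3210, SD, n = 3), control (12280 ± 1220), bottom flank (10140 ± 1270), lit flank (5520 ± 1940) and shaded flank (5485 ± 1730). Neighbours in this order overlapped everywhere except at the step from bottom to lit flank.

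psaI, the next gene, had control signals of 8479, 8931 and 8336, the tightest of its 5 groups. The shaded flank gave 2578, 3704 and 5022, and the lit flank 3989, 1983 and 4479. The bottom flank gave 7646, 6334 and 9848, and the top flank 7516, 10231 and 6881. As for accD, the 6 blue light arrays formed a separate low set, and the control arrays lay within the range of the gravity arrays. Group means ran from 8582 ± 310 (SD, n = 3) in the control through the top (8209 ± 1780) and bottom flank (7943 ± 1780) to the shaded (3768 ± 1220) and lit flank (3484 ± 1320), and only the step from bottom to shaded flank separated the arrays.

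ycf4, in the middle of the operon, was the most variable member. Its control signals were 10530, 26427 and 23551, so the first control array lay well below the other two. The shaded flank gave 7686, 22525 and 17878, and the lit flank 13893, 7639 and 15953. The bottom flank gave 33113, 18784 and 34101, and the top flank 35303, 36124 and 30891. The 3 top arrays lay above every blue light and control array, while the blue light and control arrays were interleaved. The order was top (34110 ± 2810, SD, n = 3), bottom (28670 ± 8570), control (20170 ± 8470), shaded (16030 ± 7590) and lit flank (12490 ± 4330), and every pair of neighbours overlapped.

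The cemA probe set lay near the upper end of the array's signal range, between the 12th and the 28th place from the brightest probe set, which says nothing of its RNA level beside that of other genes. Its control signals were 58561, 62823 and 59603. The shaded flank gave 45551, 46709 and 51572, and the lit flank 53342, 34356 and 52675. The bottom flank gave 60155, 61448 and 69244, and the top flank 63047, 64231 and 63724. Again the 6 blue light arrays lay below the other 9, but the gap was narrow, with 53342 as the highest blue light and 58561 as the lowest control signal. Means ran from 63670 ± 594 (SD, n = 3) in the top flank and 63620 ± 4920 in the bottom flank to 60330 ± 2220 in the control, 47940 ± 3190 in the shaded flank and 46790 ± 10800 in the lit flank, with separation only between control and shaded flank.

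petA, the last gene, had control signals of 4848, 6745 and 5135. The shaded flank gave 2493, 2827 and 2797, and the lit flank 3330, 1503 and 2863. The bottom flank gave 4832, 3919 and 4866, and the top flank 4421, 6070 and 4119. The blue light arrays were once more the 6 lowest. The control mean was 5576 ± 1020 (SD, n = 3), followed by the top (4870 ± 1050) and bottom flank (4539 ± 537), and then by the shaded (2706 ± 185) and lit flank (2565 ± 949), with the only separation between bottom and shaded flank.

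**Figure D1:**
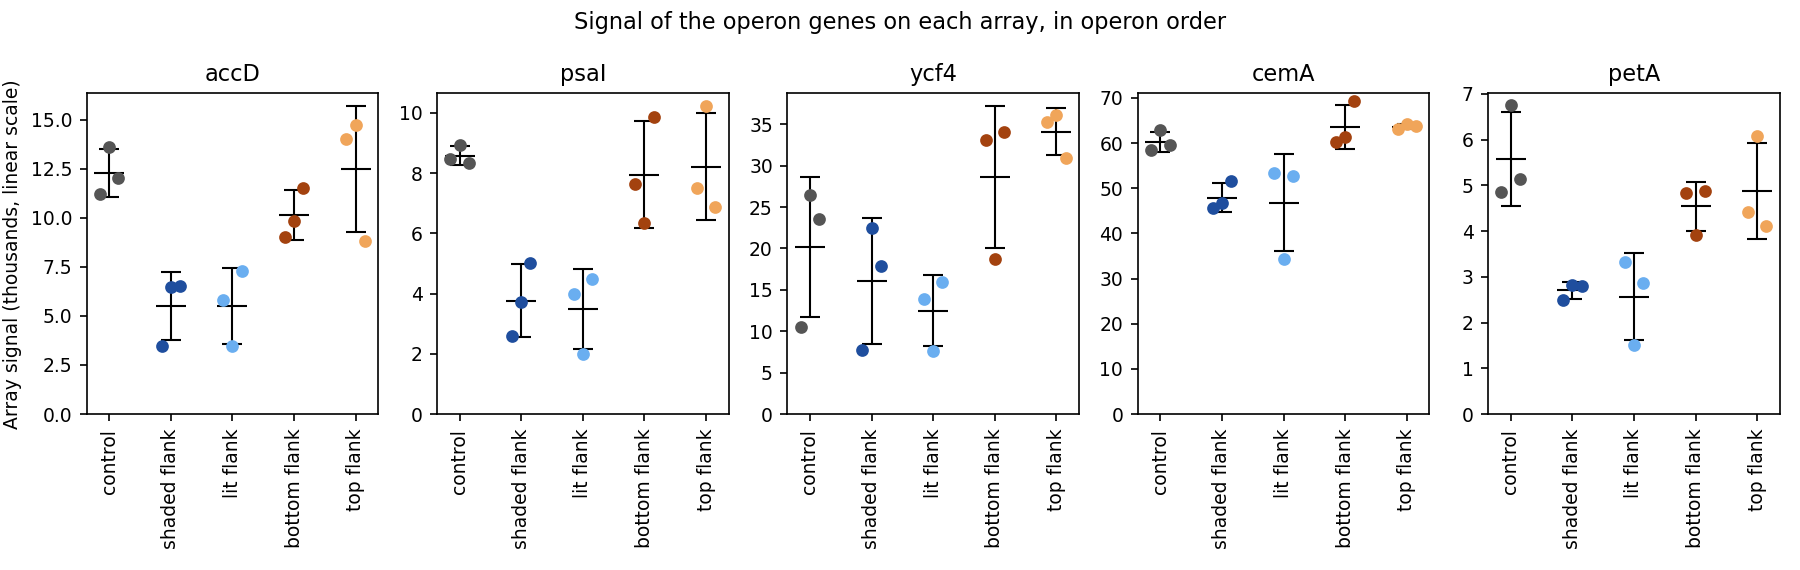
Array signal on a linear scale of the 5 operon genes, 1 panel per gene in operon order; points are single arrays, long bars the mean and whiskers the SD of 3 arrays. The blue light points of accD, psaI, cemA and petA lie below all control and gravity points, and those of ycf4 overlap with both.

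Set along the operon, the 2 blue light flanks followed nearly the same course, low at accD, psaI and petA and nearer to the control at ycf4 and cemA. With shaded and lit flank averaged in the fit over all 15 arrays, the log2 difference of blue light from the control was −1.21 (SE 0.24) for accD, −1.31 (SE 0.24) for psaI, −0.51 (SE 0.34) for ycf4, −0.36 (SE 0.16) for cemA and −1.11 (SE 0.21) for petA. As folds, signals were lower by 2.32 times for accD, 2.48 for psaI, 1.42 for ycf4, 1.29 for cemA and 2.15 for petA. The members' median was −1.11, where the median of all 11371 tested probe sets was −0.0042. Because this comparison chose the operon, the next counts only describe it and nothing is read from them. accD, psaI and petA, 3 of 5 members, lay past the adjusted threshold of 0.05, where 0.22% of all tested probe sets did. For 4 of 5 members, all but ycf4, the blue light arrays lay wholly below the control arrays, where this held for 3.09% of all tested probe sets. The count of 3 rests on single arrays: it was 0 without the first or second shaded array or without any 1 of the 3 control arrays, and 1 (psaI) without the third shaded, the second bottom or the third bottom array. The log2 differences moved less, and without the second lit array they were −1.06, −1.13, −0.35, −0.26 and −0.93 in operon order. For ycf4 the first control array weighed most, and without it the difference was −0.92.

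The distance between members in blue light was also seen within arrays, where scaling cancels. The log2 ratio of psaI to cemA was 0.95 lower in blue light than in the control, at −3.76 ± 0.31 (SD, n = 6) against −2.81 ± 0.02 (n = 3), and no array overlapped. The ratio of accD to cemA was lower by 0.85 and that of cemA to petA higher by 0.74, both again with separate arrays. Ratios to ycf4 were lower as well, by 0.71 for accD and by 0.81 for psaI, with separate arrays, though for psaI by a narrow margin. The psaI to ycf4 ratio was lower by 0.82 in gravity against the control too, and the arrays were separate by a very narrow margin. These ratios to ycf4 rest in part on the first control array, whose ycf4 signal was 10530, against 26427 and 23551 on the other control arrays. Control ratios spread widely, with an SD of 0.61 for accD to ycf4 and 0.70 for psaI to ycf4 (n = 3). Differences in these ratios without that array were not computed. In blue light against the control 5 of 10 operon pairs had separate arrays, where 7.71% of 1711 pairs of other plastid genes did; in gravity against the control it was 2 of 10 pairs, where 15.8% did. The blue light share describes the comparison that chose the operon. Between accD, psaI and petA, by contrast, the ratios moved by 0.10 (accD to psaI), −0.11 (accD to petA) and −0.21 (psaI to petA), and the arrays overlapped. So accD, psaI and petA differed by similar amounts, and cemA by less than each of them. The place of cemA near the upper end of the signal range stands beside its small difference, and its part in that difference was not tested.

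Gravity-stimulated flanks gave another picture. The log2 difference of the averaged bottom and top flanks from the control was −0.14 (SE 0.24) for accD, −0.11 (SE 0.24) for psaI, 0.71 (SE 0.34) for ycf4, 0.08 (SE 0.16) for cemA and −0.24 (SE 0.21) for petA. No member's gravity arrays lay wholly above or below its control arrays, where 6.77% of all tested probe sets did so in either direction, and 0.73% of all tested probe sets passed the adjusted threshold in this comparison. The ycf4 value, which reads as a signal 1.64 times that of the control, depends on the low first control array. It was 0.30 without that array and 0.96 without the second.

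Blue light set directly against gravity compares 6 arrays with 6. The log2 difference was −1.07 (SE 0.20) for accD, −1.20 (SE 0.20) for psaI, −1.22 (SE 0.28) for ycf4, −0.44 (SE 0.13) for cemA and −0.86 (SE 0.17) for petA, with a median of −1.07 against 0.01 for all tested probe sets. Here ycf4 stood with accD and psaI, and cemA again differed least. In 4 of 5 members, all but ycf4, every blue light array lay below every gravity array, as in 0.994% of all tested probe sets. Without the second lit array the values were −0.92, −1.02, −1.06, −0.34 and −0.69 in operon order.

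**Figure D2:**
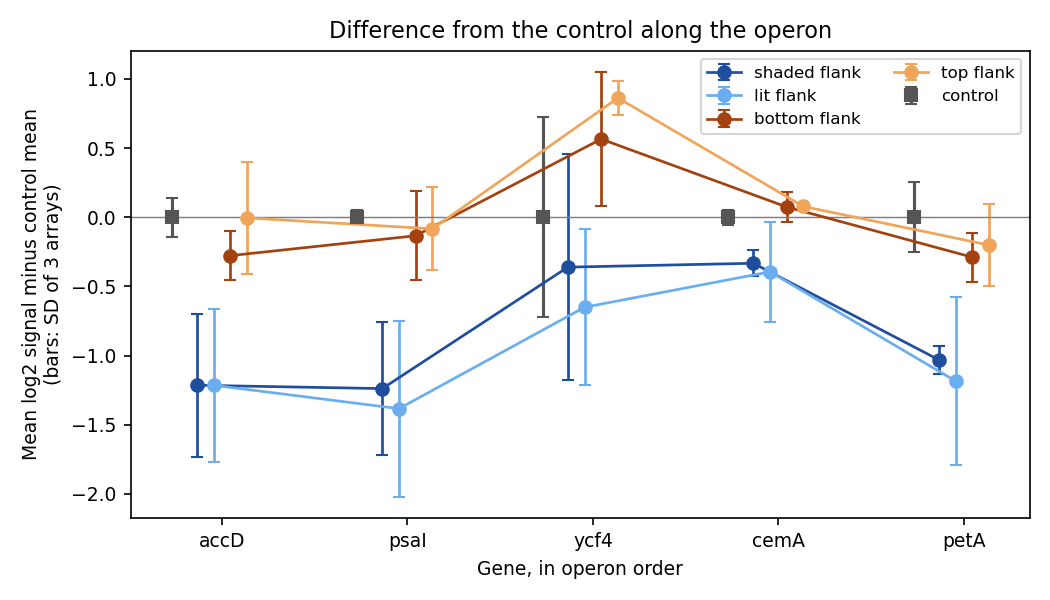
Mean log2 signal minus the control mean for each group along the operon, in operon order from left to right; bars are the SD of 3 arrays. Both blue light flanks lie near −1.2 at accD and psaI and near −0.4 at cemA, while both gravity flanks stay near 0 except at ycf4, whose control bar is also the widest.

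Whether the elongating flank differs from its opposite was the question for which the tissue was split. No member passed limma's test between flanks. For elongating against opposite flanks over both stimulations, 0 of 5 members passed the adjusted threshold, none had an unadjusted p under 0.05, and 0.237% of all tested probe sets passed. The log2 difference of accD was −0.14 (95% interval −0.55 to 0.28, adjusted p 0.90 by limma), that of psaI 0.05 (−0.37 to 0.47, adjusted p 0.97) and that of petA 0.03 (−0.33 to 0.39, adjusted p 0.98). The interval of cemA was the narrowest, 0.03 (−0.25 to 0.30, adjusted p 0.97), which allows a fold between 0.84 and 1.23, and that of ycf4 the widest, from −0.60 to 0.59 (adjusted p 1.00).

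Within blue light, shaded minus lit flank was 0.00 (95% interval −0.58 to 0.58) for accD, 0.15 (−0.45 to 0.74) for psaI, 0.29 (−0.55 to 1.13) for ycf4, 0.06 (−0.33 to 0.45) for cemA and 0.15 (−0.36 to 0.66) for petA. By limma 0 of 5 members and 0% of all tested probe sets passed the adjusted threshold, although 598 probe sets, none of them a member, had an unadjusted p under 0.05. Without the second lit array all 5 estimates turned negative, from −0.30 for accD to −0.03 for ycf4, and none passed. Within gravity, bottom minus top flank was −0.27 (−0.86 to 0.31, adjusted p 0.87 by limma) for accD and −0.30 (−1.14 to 0.54, adjusted p 0.92) for ycf4, with −0.09 for petA, −0.05 for psaI and −0.0039 for cemA. Again 0 of 5 members passed, beside 0.0352% of all tested probe sets. The test of whether the flank difference itself differed between blue light and gravity passed for 0 of 5 members and 0% of all tested probe sets by limma, where 383 probe sets, again without a member, had an unadjusted p under 0.05. Its estimates ran from 0.07 (−0.48 to 0.61) for cemA to 0.59 (−0.60 to 1.77) for ycf4. Across the alternatives run, the lowest adjusted p of any member was 0.734 for elongating against opposite flanks, 0.883 within blue light, 0.829 within gravity and 0.974 for the difference between stimulations. For accD in blue light the 95% interval of the fold, 0.67 to 1.5, shows which differences the arrays leave possible and is no limit of detection.

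Within a group, the operon genes went up and down together from array to array. Deviations of log2 signal from the group mean correlated positively in all 10 pairs of members (15 arrays, group means removed), with Pearson's r from 0.56 (ycf4 with cemA) to 0.87 (accD with psaI). In an exact two-sided permutation test of arrays within groups, with Benjamini-Hochberg adjustment over the 10 pairs, all 10 passed. The adjacent genes accD and psaI gave r = 0.869 (exact permutation p = 0.0021, adjusted p = 0.010), Spearman's rho = 0.825 (exact permutation p = 0.0050, adjusted p = 0.011) and r = 0.735 without the 2 arrays farthest from the median of accD. The outermost pair, accD and petA, gave r = 0.712 (exact permutation p = 0.015, adjusted p = 0.017) and rho = 0.589 (exact permutation p = 0.048, adjusted p = 0.053). The weakest pair, ycf4 and cemA, gave r = 0.555 (exact permutation p = 0.050, adjusted p = 0.050) and rho = 0.521 (exact permutation p = 0.085, adjusted p = 0.085). Leaving out, for each pair, the 2 arrays farthest from the median of its first gene in operon order left r between 0.533 and 0.770. The second lit array thereby stayed in for the pairs of ycf4 with cemA and with petA.

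Much of this common movement sat on the second lit array, on which all 5 members lay below their group mean. Without that array r was 0.435 to 0.789 and 0 of 10 pairs passed after adjustment by the exact permutation test, while 5 had an unadjusted p under 0.05. Without the first or the third lit array 6 pairs passed. The movement was also partly shared with the rest of the plastid genome. The median r of each operon gene with the other members was 0.672 (ycf4) to 0.831 (psaI), its median r with 59 other plastid genes was 0.391 (ycf4) to 0.590 (psaI), and its median r with all 11366 other tested probe sets was between −0.007 and 0.007. With arrays centred on the other plastid genes, r had a median of 0.437 and 1 pair passed by the exact permutation test.

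**Figure D3:**
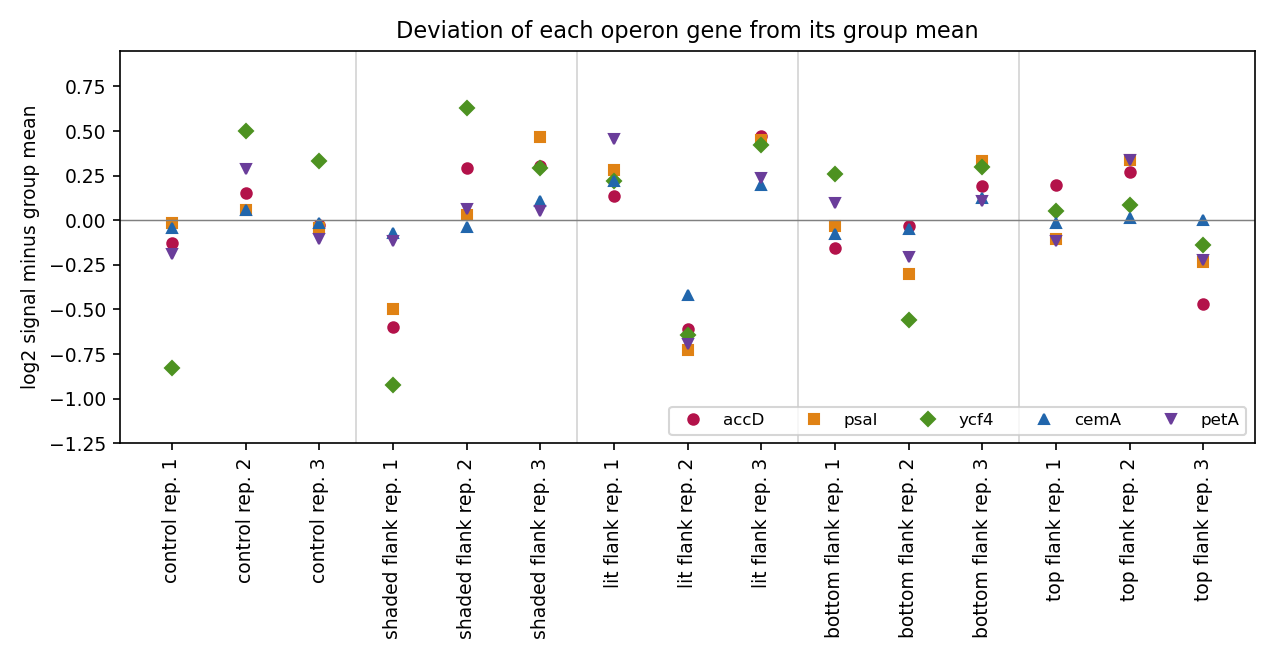
Log2 signal of each operon gene minus its group mean on each of the 15 arrays, with 1 symbol per gene. All 5 genes lie below 0 on the second lit array and on the first shaded array, and above 0 on the first and the third lit array.

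The other plastid genes give the setting of these values. Of 73 listed plastid genes outside the operon, 61 had a named probe set and 59 were tested. In blue light against the control their estimates were lower for 52 and higher for 7, with a median of −0.40, and none passed the adjusted threshold, against 0.22% of all tested probe sets. Without the second lit array this median was −0.28. Ranked from the lowest among the 64 plastid genes, psaI was at place 1, accD at 3 and petA at 4, while ycf4 was at 26 and cemA at 38. In blue light against gravity 10 of the 59 passed as lower and 1 as higher, against 2.22% of all tested probe sets, with a median of −0.31, and ycf4, psaI and accD held places 1, 2 and 3, with petA at 7 and cemA at 25. The median in this comparison was −0.19 without the second lit array. In gravity against the control the median was −0.04, 1 gene passed as lower, and ycf4 was at place 61. None of the 59 passed in any comparison of flanks.

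The genes that passed in blue light against gravity included some partners of the operon's products, beside genes of other complexes. petL and petG, small subunits of the cytochrome b6f complex that petA's cytochrome f belongs to, had log2 differences of −0.88 (SE 0.16, adjusted p 0.0092 by limma) and −0.84 (SE 0.17, adjusted p 0.015). That of psaB, a core subunit of photosystem I, was −0.67 (adjusted p 0.041), and that of ycf3, which like ycf4 serves photosystem I assembly, was −0.83 (adjusted p 0.030). psbB and psbI, both of photosystem II, had −0.87 each (adjusted p 0.046 and 0.024). None of these 6 passed against the control in either stimulation. Their blue light estimates against the control were −0.66 for petL, −0.83 for petG, −0.47 for psaB, −0.66 for ycf3, −0.11 for psbB and −0.57 for psbI. Their gravity estimates against the control were 0.22 for petL, 0.02 for petG, 0.20 for psaB, 0.17 for ycf3, 0.76 for psbB and 0.29 for psbI. Most of the psbB difference thus lay on the gravity side, and nearly all of the petG difference on the blue light side. petG, psaB and ycf3 were picked for their complexes after their values were seen. The other genes that passed as lower were psbA (−0.78), psbK (−0.82), atpH (−0.76) and rpoC2 (−0.56). Other plastid genes of photosystem I did not pass: psaA, psaC and psaJ (adjusted p 0.22, 0.13 and 0.14 by limma). Nor did petB, petD and petN of the cytochrome b6f complex (adjusted p 0.25, 0.98 and 0.61 by limma). The count of 10 lower genes ranged from 3 to 11 when single arrays were left out. It was 3 without the first shaded, the third bottom or the second top array, 4 without the second shaded, the second lit or the first top array, 5 without the third lit or the first bottom array, and 6 without the second bottom array. Leaving out a single array lost the call of psbB for 12 of the 15 arrays (adjusted p up to 0.112 by limma), of psaB for 10 (up to 0.104), of ycf3 for 8 (up to 0.0775) and of psbI for 5 (up to 0.0653). The first and the second shaded array were among them for all 4 genes, and the second lit array for psaB, ycf3 and psbB. petL and petG passed without each single array. The gene that passed as higher was rpl14, for a protein of the plastid ribosome, with a log2 difference of 3.41 in blue light against gravity (adjusted p 2.1e-08 by limma). Against the control its difference was −4.30 in gravity (adjusted p 1.3e-08 by limma) and −0.90 in blue light (adjusted p 0.11). Both of its estimates against the control were thus lower.

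**Figure D4:**
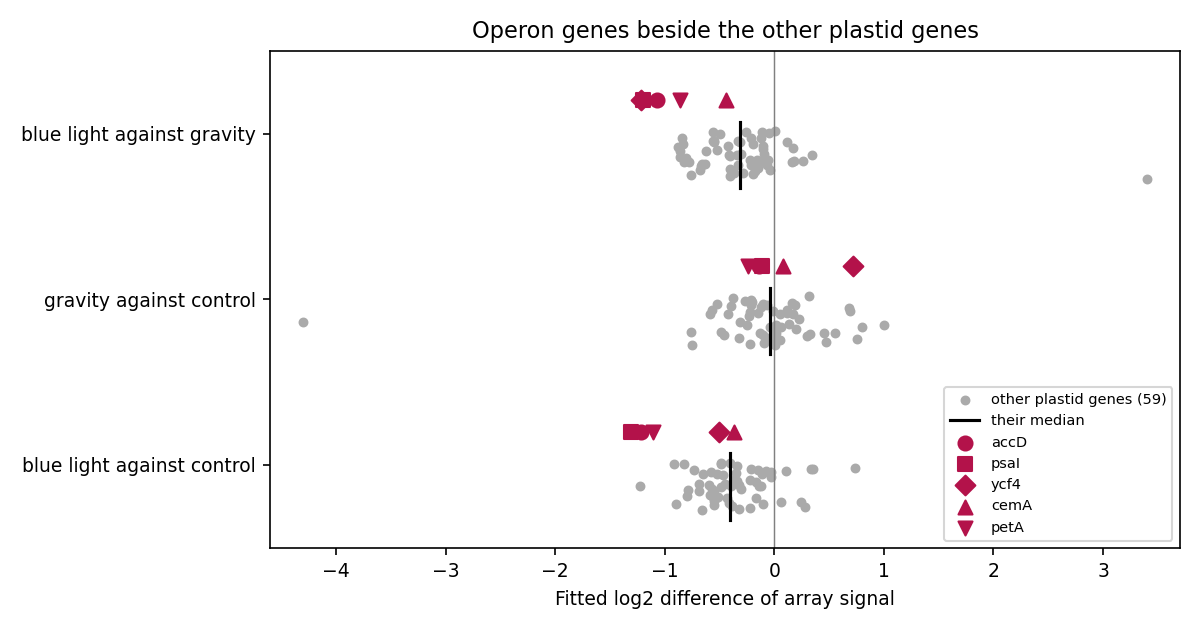
Fitted log2 difference in signal of the 5 operon genes (coloured symbols) and of 59 other plastid genes (grey points, black line at their median) in the 3 comparisons of stimulations. In blue light against gravity 4 operon genes lie at or beyond the low end of the grey cloud, and cemA lies within it; rpl14 is the single point at −4.30 and 3.41.

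The array-wide plastid level moved with the operon. The median log2 signal of the other plastid genes was 11.23 ± 0.37 (SD, n = 6) in blue light, 11.56 ± 0.20 (n = 6) in gravity and 11.70 ± 0.16 (n = 3) in the control. Less that median, the mean log2 signal of the operon was 1.70 ± 0.26 in blue light (1.44 to 2.14), 2.33 ± 0.15 in gravity (2.11 to 2.52) and 2.13 ± 0.35 in the control (1.73 to 2.34), so 1 blue light array lay within the gravity range and 3 blue light arrays lay within the control range. With arrays centred on the other plastid genes, a scaling that moves the median of all probe sets by 0.465, the differences of blue light from the control were −0.75 for accD, −0.84 for psaI, −0.04 for ycf4, 0.11 for cemA and −0.64 for petA. Relative to the plastid genome, then, accD, psaI and petA stayed lower. The cemA estimate changed sign, but its size was below its SE in the main fit, 0.16. The log2 ratio of 3′ to 5′ probe sets of the control genes was −0.31 ± 0.15 in blue light, −0.17 ± 0.11 in gravity and 0.06 ± 0.30 in the control. It is only a rough measure of RNA quality here, since mismatches of Arabidopsis probes with Brassica cRNA can shift its level. The first control array, also the one with the low ycf4 signal, read 0.396, against −0.040 and −0.181 on the other control arrays. The part of RNA quality in the operon's differences was not tested.

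**Figure D5:**
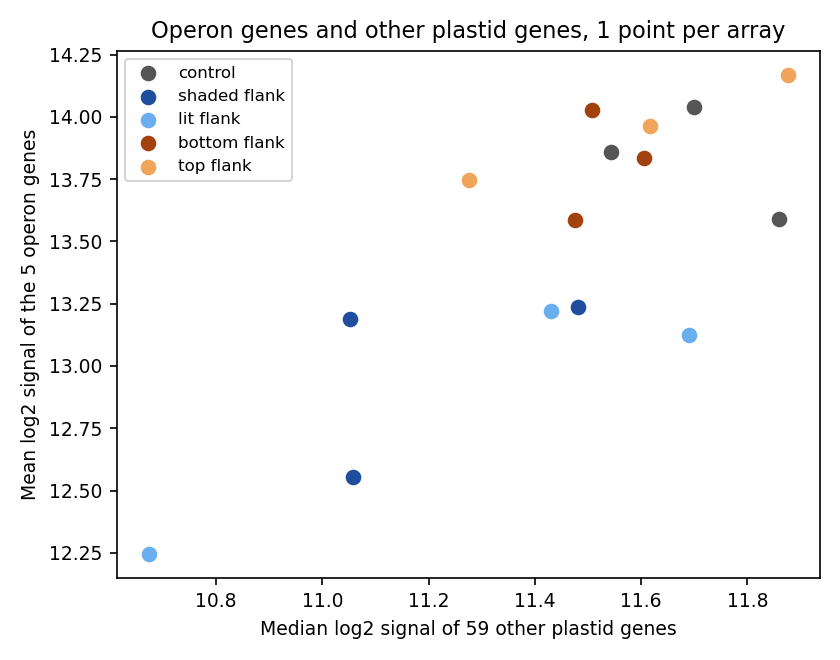
Mean log2 signal of the 5 operon genes against the median log2 signal of 59 other plastid genes, 1 point per array, coloured by group. Blue light arrays lie at the bottom, with the second lit array lowest at 12.25, and at a similar plastid level (11.43 to 11.69) they lie below the gravity and control arrays.

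The genes next to the operon on the plastid genome were chosen after their values were seen. rbcL, upstream of accD and encoding the large subunit of Rubisco, had means of 5423 ± 1070 (SD, n = 3) in the control, 4663 ± 1370 (shaded), 5182 ± 1730 (lit), 5162 ± 1420 (bottom) and 5000 ± 1180 (top flank), and its log2 difference in blue light was −0.17 (SE 0.24, adjusted p 0.88 by limma), nearer to 0 than the estimate of any operon gene. psbJ, downstream of petA and encoding a small subunit of photosystem II, had −0.59 (SE 0.41, adjusted p 0.68), between the estimates of petA and ycf4. Neither passed the threshold in any comparison.

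The named probe sets whose log2 signal followed the mean of the operon most closely over the 15 arrays were petL (Pearson's r 0.920), petG (0.907), ycf3 (0.895), atpH (0.887), for a membrane subunit of the plastid ATP synthase, and a probe set annotated RBL (0.881). These arrays share the group differences by which the operon was chosen, so the values are a description. The course of petG was like that of accD, with 17390 ± 634 (SD, n = 3) in the control, 9674 ± 3080 (shaded), 10670 ± 3380 (lit), 16350 ± 1100 (bottom) and 19160 ± 3630 (top flank).

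The few nuclear partner genes that could be tested had higher estimates in blue light, and 1 of them passed the threshold. Of 31 symbols listed as partners of photosystem I and the cytochrome b6f complex, some of them alternative names, 5 had a named probe set and 3 were tested. HCF101, which serves photosystem I assembly, rose by 1.02 (SE 0.18, adjusted p 0.031 by limma) in blue light against the control and by 1.06 (SE 0.15, adjusted p 0.0016) against gravity. The first of these did not pass when any 1 control array, any 1 shaded array or the third lit array was left out, with an adjusted p of up to 0.165, and the second passed without each single array. The photosystem I subunits PSAN and PSAE-1 had log2 differences of 0.94 (adjusted p 0.51 by limma) and 0.42 (adjusted p 0.40) from the control. The median of the 3 genes in blue light against the control was 0.94, and 0.28 without the first control array. The lists of fatty acid synthesis and of plastid gene expression had no member with a named probe set and are not analysed here.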

How the data were processed

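The authors deposited intensities: 1 linear-scale signal per probe set and array from the Affymetrix program GCOS 3.0, per the submitters' processing notes. Settings of that program were not given in the sources used here. The trimmed mean (lowest and highest 2% left out) was 500 on each of the 15 arrays. Arabidopsis probes met Brassica cRNA, so mismatches can lower or hide a signal. No 2 arrays shared more than 0.088% of values, and none was treated as a duplicate. Gene names came from the platform annotation, in which 13513 probe sets had 1 symbol, 503 had several and 8794 were not listed. That table gives no organelle, so plastid and mitochondrial genes were matched by symbol, and 5 symbols used in both genomes were left out. A value at or below 0 (1 in all) was set to 0.4 before log2 was taken. The 64 control probe sets and probe sets with a mean log2 signal under the median, 8.28, were left out. A model of 5 group means over all 15 arrays was fitted with limma 3.58.1 in R 4.3.3 (eBayes with intensity trend, 10 residual degrees of freedom), with Benjamini-Hochberg adjustment over 11371 probe sets within a comparison, and tested on simulated data. Correlations within groups used all 7776 orders of arrays within groups. The members and lists were chosen with earlier results of these data known. The rule for names took all 5 members, up to 4 genes of a list past the threshold (otherwise up to 3 of smallest p), and the 5 named probe sets most like the operon; exceptions are marked. Scaling, filter, offset, trend, array weights, a replicate block, the groups fitted and each array were varied. No sequences are shown.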

Additional observations from a re-analysis of the deposited data

How the results depend on the processing

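In the comparison that chose the operon, blue light against the control, the descriptive count of 3 genes past the threshold was 1 with quantile normalization and 0 with arrays centred on the other plastid genes, with no filter, with no intensity trend, with the arrays of the compared groups alone and with a replicate block; it ran from 0 to 3 when single arrays were left out. The other 4 settings kept it within 1.5 times. The members' median difference there was −0.64 with arrays centred on the other plastid genes, against −1.11. Of the 10 correlated pairs, 0 passed with quantile normalization (5 had an unadjusted p under 0.05), 1 with arrays centred on the other plastid genes, and 0 to 10 when single arrays were left out. The 10 other plastid genes lower in blue light than in gravity became 6 with quantile normalization or the compared groups alone, 4 with no filter, 2 with no intensity trend and 0 with plastid centring. HCF101 in blue light against the control did not pass with no filter, the compared groups alone or the replicate block (adjusted p 0.075, 0.069 and 0.062 by limma). The cause of these shifts was not tested. Same-numbered arrays correlated weakly, with r of 0.038 to 0.149 for shaded and lit and −0.018 to 0.060 for bottom and top. Each shaded array nevertheless correlated best with the lit array of its own number, and 1 of 3 bottom arrays did so with its top array. The main fit did not take the numbers as pairs, and a pairing of the shaded and lit arrays is not excluded. The replicate block changed no call of a flank comparison.

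Flank differences near 0 changed sign without passing the threshold. Elongating against opposite flanks turned to −0.006 for psaI and −0.016 for petA with quantile normalization, and for ycf4 to 0.011, 0.060 and 0.063 with median centring, plastid centring and array weights. Shaded against lit turned to −0.081 for accD with quantile normalization. Bottom against top turned to 0.010 for psaI with plastid centring, and for cemA to 0.060, 0.012 and 0.056 with quantile normalization, median centring and plastid centring. The difference between stimulations turned to −0.057 for cemA with quantile normalization. With single arrays left out, elongating against opposite flanks ran from −0.288 to 0.013 (accD), −0.134 to 0.172 (psaI), −0.164 to 0.227 (ycf4), −0.075 to 0.083 (cemA) and −0.140 to 0.147 (petA). Shaded against lit ran from −0.303 to 0.299, −0.218 to 0.393, −0.031 to 0.752, −0.147 to 0.170 and −0.193 to 0.381 in the same order. Bottom against top ran from −0.217 to 0.120 (psaI), −0.066 to 0.035 (cemA) and −0.198 to 0.082 (petA). The difference between stimulations ran from −0.030 to 0.572 (accD), −0.168 to 0.443 (psaI), −0.143 to 0.174 (cemA) and −0.105 to 0.468 (petA).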

Other observations

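Mitochondrial genes, the other organelle's transcripts in the same RNA, were measured by 18 named probe sets, of which 8 were tested. In blue light against the control 1 passed the threshold, nad4, a subunit of respiratory complex I, which fell by 1.09 (SE 0.16, adjusted p 0.011 by limma), and the list's median was −0.52, against −0.40 for the plastid genes outside the operon. In gravity against the control nad4 fell by 0.84 (SE 0.16, adjusted p 0.016 by limma), where the operon genes had −0.14 (accD), −0.11 (psaI), 0.71 (ycf4), 0.08 (cemA) and −0.24 (petA). Both nad4 calls were lost without the first control array (adjusted p 0.096 and 0.106 by limma) and with arrays centred on the other plastid genes (0.14 and 0.265), and the gravity call also with no intensity trend (0.0752). The difference of nad4 between blue light and gravity was −0.25 (SE 0.13, adjusted p 0.37 by limma). In that comparison 2 of the 8 passed, both as lower: cox2 (adjusted p 0.0095 by limma) and cox1 (adjusted p 0.039). The list's median there was −0.34, against −0.31 for the plastid genes outside the operon. The count of 2 was 1 without the second lit array, and 0 with arrays centred on the other plastid genes.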
